A study of Mus musculus with 20 samples.

Results

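The 9 genes Dbp, Tef, Hlf, Nr1d1, Nr1d2, Ciart, Nfil3, Bhlhe40 and Bhlhe41 were followed in ovaries of 2 mouse lines. They are output and feedback genes of the circadian clock and were looked up by symbol, giving 1 Ensembl gene each, 9 of the 54838 genes counted in every library. Ovaries of 20 female mice aged about 77 days had been sequenced, 1 library per animal, with 5 animals in each of 4 groups: ctrl estrus, FL1 estrus, ctrl diestrus and FL1 diestrus. FL1 is a Dummerstorf mouse line selected over many generations for large litters, and ctrl is the unselected line from the same outbred founder stock, labelled WT. Neither line carries a named allele, transgene or treatment. The stage was read from the vaginal smear, cornified cells alone for estrus and leucocytes alone for diestrus. Mice lived under a fixed light and dark cycle, and samples were taken at the same time of day, but the clock hour of each animal was not given, so differences in sampling hour cannot be told apart from differences in level. In whole ovaries, fewer cells of a type and less RNA per cell cannot be told apart either.

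The mammalian clock turns on a loop in which BMAL1 (gene Arntl) and CLOCK switch on genes through E-box sequences, among them the Per and Cry genes whose proteins then block BMAL1 and CLOCK. E-boxes also drive most of the output genes followed here, and their transcripts rise and fall over the day in many tissues. DBP, TEF and HLF are the PAR bZIP activators, which bind D-box sequences. NFIL3 (E4BP4) binds the same D-boxes as a repressor. REV-ERB alpha (Nr1d1) and REV-ERB beta (Nr1d2) are haem-binding nuclear receptors that repress Arntl, Npas2 and Nfil3 through RORE sequences, where the ROR receptors activate. CIART (CHRONO) and the DEC proteins BHLHE40 (DEC1) and BHLHE41 (DEC2) repress BMAL1 and CLOCK. In the ovary the clock runs in granulosa, theca and luteal cells, and the timing of the LH surge and of the response to it follow the time of day.

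The E-box, the E'-box and the RORE are sequences through which the loop can reach such genes. Promoters that hold any of them within 250 bases before to 50 bases after the start of the gene are printed below. The windows of Dbp, Hlf and Nr1d2 held none of them, and Bhlhe40 had no window. Sequences are from RefSeq on GRCm38.p6, which has such a window for 8 of the 9 genes, with 2 starts for Tef. They read 5′ to 3′ on the strand of the gene, and capitals mark the motif.
Tef (first start, chr15:81802423-81802722, + strand): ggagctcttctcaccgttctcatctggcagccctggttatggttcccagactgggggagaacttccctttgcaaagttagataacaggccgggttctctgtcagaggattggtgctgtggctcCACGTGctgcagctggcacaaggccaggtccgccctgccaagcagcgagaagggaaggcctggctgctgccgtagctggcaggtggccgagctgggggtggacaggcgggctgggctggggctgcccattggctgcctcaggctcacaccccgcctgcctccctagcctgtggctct
Nr1d1 (chr11:98775328-98775627, − strand): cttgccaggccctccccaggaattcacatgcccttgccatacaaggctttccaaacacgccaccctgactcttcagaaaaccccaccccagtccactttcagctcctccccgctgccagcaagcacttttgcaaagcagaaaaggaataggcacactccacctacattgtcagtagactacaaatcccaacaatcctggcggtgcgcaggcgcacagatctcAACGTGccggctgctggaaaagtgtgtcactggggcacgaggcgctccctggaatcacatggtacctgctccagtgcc
Ciart (chr3:95882179-95882478, − strand): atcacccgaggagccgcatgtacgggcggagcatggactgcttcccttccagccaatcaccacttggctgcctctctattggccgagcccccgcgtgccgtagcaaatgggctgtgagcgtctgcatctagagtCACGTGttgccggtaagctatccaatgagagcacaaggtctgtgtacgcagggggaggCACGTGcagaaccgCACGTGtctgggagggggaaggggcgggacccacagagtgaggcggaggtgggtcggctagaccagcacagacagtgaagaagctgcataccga
Nfil3 (chr13:52980990-52981289, − strand): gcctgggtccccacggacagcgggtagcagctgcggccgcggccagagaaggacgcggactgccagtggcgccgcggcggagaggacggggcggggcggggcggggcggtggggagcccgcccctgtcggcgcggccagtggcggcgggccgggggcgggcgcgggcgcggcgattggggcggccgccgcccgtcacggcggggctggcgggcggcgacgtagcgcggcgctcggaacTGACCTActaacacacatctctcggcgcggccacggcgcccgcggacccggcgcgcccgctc
Bhlhe41 (chr6:145865371-145865670, − strand): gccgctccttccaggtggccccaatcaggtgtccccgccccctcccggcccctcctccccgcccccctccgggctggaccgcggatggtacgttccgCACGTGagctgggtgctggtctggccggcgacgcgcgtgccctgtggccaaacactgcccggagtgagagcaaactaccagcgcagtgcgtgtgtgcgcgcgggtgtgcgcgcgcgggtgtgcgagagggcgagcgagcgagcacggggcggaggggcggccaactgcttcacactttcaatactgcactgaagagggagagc
The E-box searched was CACGTG, which reads the same on both strands. It stood 127 bases before the first start of Tef, 138 bases before its second start (window not printed), 116, 58 and 44 bases before the start of Ciart, and 153 bases before that of Bhlhe41. Of all 32851 RefSeq promoter windows of this length, 7.15% held it, against 4 of the 9 windows here. The E'-box CACGTT, searched on both strands like the motifs that follow, stood 28 bases before the start of Nr1d1 on the opposite strand and was in 4.68% of all windows. The RORE core, TAGGTCA or TGGGTCA, stood 12 bases before the start of Nfil3 on the opposite strand and was in 6.45% of all windows. No D-box, spelled TTATGTAA, TTATGCAA or TTACGTAA, was found in the 9 windows, and 1.78% of all windows held one. Distances are counted from the RefSeq starts, which can differ from the ends of the GENCODE gene spans given below. The RORE core of Nfil3 and both E-boxes of Tef lie inside those spans. A match describes these letters in this window and is not a measured binding site.

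The libraries were made with a kit that primes at the poly(A) tail, so that reads gather at the 3′ end and their number does not grow with transcript length. Libraries held 5991223 to 10352718 counts (median 6957533). Counts per library lay between 157 and 1350 for Dbp, 332 and 1086 for Tef, 38 and 192 for Hlf, 143 and 429 for Nr1d1, 347 and 1095 for Nr1d2, 52 and 275 for Nfil3, 227 and 949 for Bhlhe40, and 31 and 222 for Bhlhe41. Ciart had between 3 and 35 counts, so its values carry the largest counting error of the 9. Levels below are normalised counts scaled to a common library size (CPM, with edgeR's TMM factors), in the order of replicates 1 to 5. A gene was called when the adjusted p of edgeR's quasi-likelihood test was at most 0.05, and all 9 genes passed the filter on low counts in every comparison. The library of ctrl estrus replicate 5 lay farthest from its own group over all genes, at a mean distance of 100.9 on the log2 scale against 63.2 to 82.6 for the others. Luteal, oocyte and, except for Amh, granulosa markers were present in every group. The summed level of 4 oviduct markers stayed at or below 4.63 CPM.

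Of the 9 genes 7 had their lowest mean level in FL1 estrus, the exceptions being Ciart and Nfil3. In FL1, 7 of the 9 were weaker and 1, Nfil3, was stronger expressed in estrus than in diestrus, where 15.9% of all tested genes were called. In ctrl 0 of the 9 were called between the stages by edgeR, DESeq2 or limma-voom (1 unadjusted p under 0.05), and edgeR called 2.85% of all genes there. Between the lines 1, Tef, was called in estrus (2.33% of all genes) and 0 in diestrus by any of these tools (4.11% by edgeR, 0 unadjusted p under 0.05). Whether the stage difference itself was unlike in the 2 lines was tested as an interaction, and none of the 9 genes passed.

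**Figure D1:**
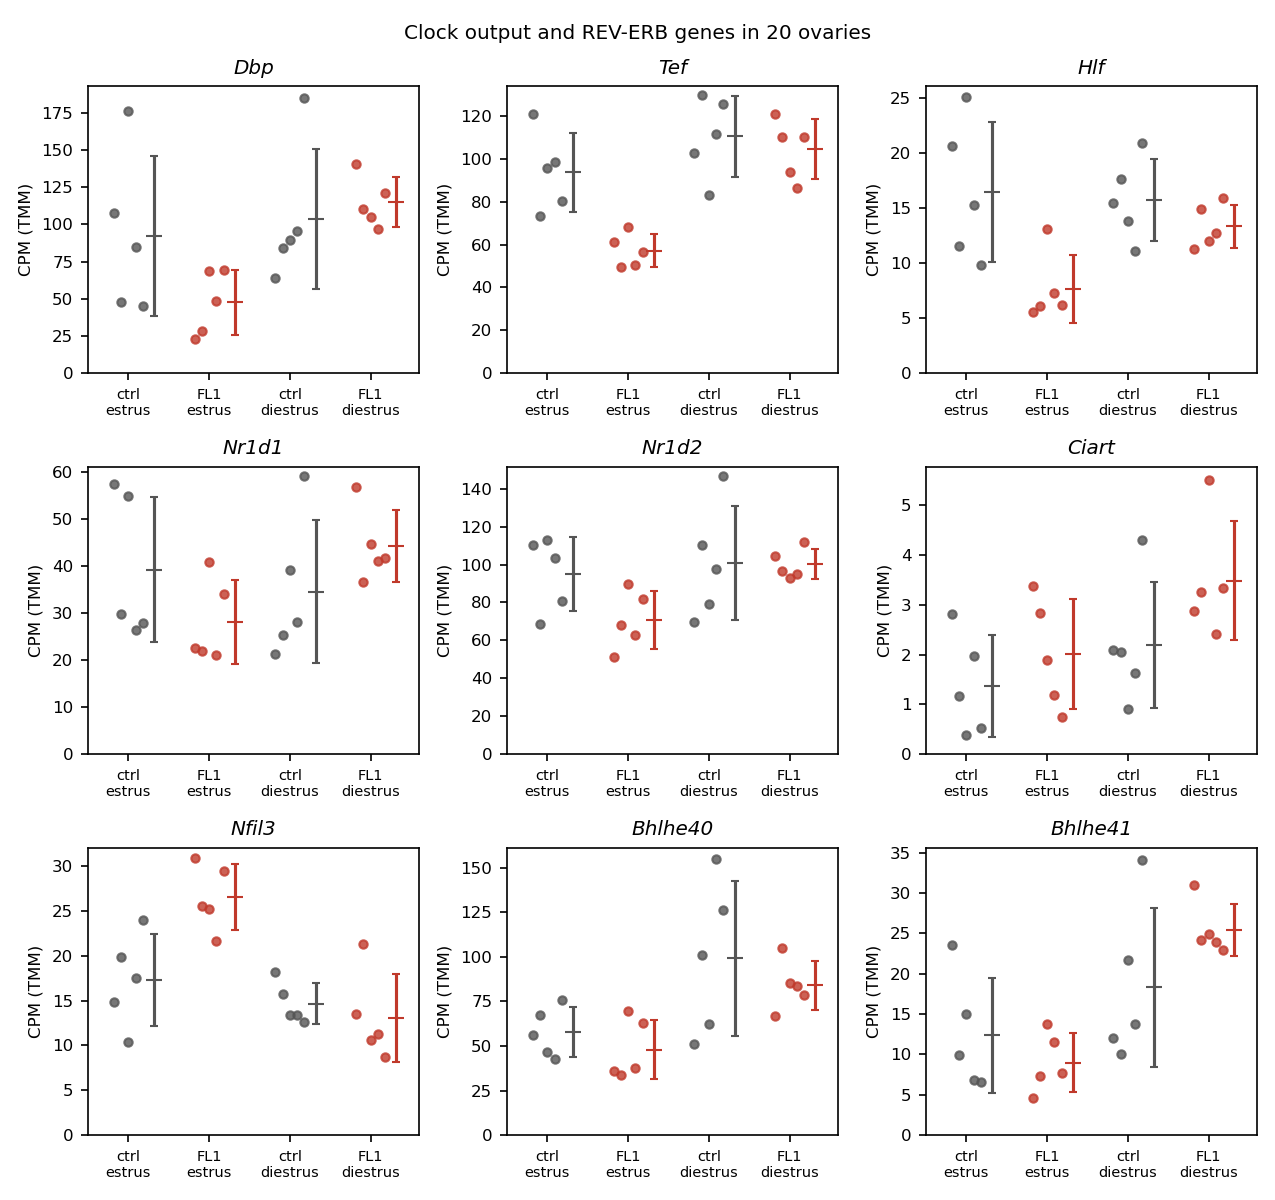
Level of each of the 9 genes in every ovary, in CPM on a linear axis that starts at 0, by group. Points are the 5 libraries of a group, and the bar beside them is the mean ± SD. The FL1 estrus points of Tef lie between 49.6 and 68.1 CPM, under all points of the other groups, and those of Nfil3 have the highest mean of its 4 groups, 26.5 CPM.

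Dbp, the D-box-binding activator with the widest daily swing in many tissues, is on chromosome 7 (ENSMUSG00000059824, GRCm38, chr7:45705088-45710203, + strand). Its level was 108, 47.7, 176, 84.5 and 44.954 CPM in ctrl estrus and 23.1, 28.3, 68.4, 48.3 and 69.5 CPM in FL1 estrus. In diestrus it was 63.7, 84.3, 89.5, 95.6 and 185 CPM in ctrl and 141, 111, 105, 97.2 and 121 CPM in FL1. The ctrl libraries spread widely in both stages, and the FL1 diestrus libraries all lay above the FL1 estrus libraries. Group means ran from 115 ± 16.9 CPM (SD, n = 5) in FL1 diestrus through 104 ± 47.1 in ctrl diestrus and 92.2 ± 53.8 in ctrl estrus to 47.5 ± 21.7 in FL1 estrus. Neighbours in this order overlapped and differed by less than the larger SD of each pair. In FL1 the estrus level was 0.417 times the diestrus level (log2FC -1.26, SE 0.24, adjusted p = 0.00161). In estrus FL1 stood at a log2FC of -0.96 against ctrl (SE 0.37, adjusted p = 0.219), which did not pass. Dbp shares 539 exon bases with Sphk2 on the opposite strand, and the strand setting of the counting was not given in the sources used here.

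Tef, the thyrotroph embryonic factor, is on chromosome 15 (ENSMUSG00000022389, chr15:81802421-81826863, + strand) and was the steadiest of the 9 within groups. Its level was 121, 73.3, 95.6, 98.5 and 80.3 CPM in ctrl estrus and 61.3, 49.6, 68.1, 50.6 and 56.5 CPM in FL1 estrus. The lowest ctrl library exceeded the highest FL1 library, so the lines did not overlap in estrus. In diestrus Tef had 103, 130.1, 83.0, 112 and 126 CPM in ctrl and 121, 111, 93.9, 86.6 and 110.5 CPM in FL1, and there the lines overlapped. Means were 111 ± 18.9 CPM in ctrl diestrus, 105 ± 14.0 in FL1 diestrus, 93.7 ± 18.5 in ctrl estrus and 57.2 ± 7.68 in FL1 estrus (SD, n = 5). Only the step from ctrl estrus to FL1 estrus, 36.5 CPM, was larger than both SDs and without overlap. FL1 had 0.608 times the ctrl level in estrus (log2FC -0.72, SE 0.14, adjusted p = 0.0146). Within FL1, Tef in estrus was at 0.549 times its diestrus level (log2FC -0.87, SE 0.11, adjusted p = 6.24e-05).

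Hlf, the hepatic leukaemia factor and the third PAR bZIP activator, is on chromosome 11 (ENSMUSG00000003949, chr11:90336536-90390895, − strand). Its level was 20.7, 11.6, 25.1, 15.3 and 9.82 CPM in ctrl estrus and 5.59, 6.13, 13.1, 7.25 and 6.21 CPM in FL1 estrus. FL1 estrus replicate 3, at 13.1 CPM, stood well above the other 4 libraries of its group and inside the ctrl range. Hlf had 15.4, 17.6, 13.8, 11.1 and 20.9 CPM in ctrl diestrus and 11.2, 14.9, 12.0, 12.8 and 15.9 CPM in FL1 diestrus. Group means were 16.5 ± 6.35 CPM in ctrl estrus, 15.8 ± 3.73 in ctrl diestrus, 13.4 ± 1.97 in FL1 diestrus and 7.66 ± 3.11 in FL1 estrus (SD, n = 5). The first 3 of these did not differ beyond their spread, and the last step of 5.70 CPM exceeded both SDs although the libraries overlapped. Within FL1, Hlf in estrus was at 0.580 times its diestrus level (log2FC -0.79, SE 0.23, adjusted p = 0.0277), a call lost when any of FL1 estrus replicates 1, 2, 4 or 5 or FL1 diestrus replicates 2 or 5 was left out (adjusted p up to 0.0689). Between the lines in estrus the log2FC was -1.11 (SE 0.29, adjusted p = 0.0698). It passed in 5 of 7 other settings and when ctrl estrus replicate 5 (adjusted p = 0.0280) or FL1 estrus replicate 3 (adjusted p = 0.0220) was left out.

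The D-box repressor Nfil3 (chromosome 13, ENSMUSG00000056749, chr13:52967209-52981073, − strand) went the other way. Its level was 30.9, 25.6, 25.2, 21.6 and 29.5 CPM in FL1 estrus and 13.5, 21.3, 10.6, 11.2 and 8.7 CPM in FL1 diestrus. All FL1 estrus libraries lay above all FL1 diestrus libraries, the closest pair being 21.6 and 21.3 CPM. In ctrl it had 14.9, 19.9, 10.3, 17.5 and 23.9 CPM in estrus and 18.2, 15.7, 13.3, 13.4 and 12.6 CPM in diestrus, and the stages overlapped. Means were 26.5 ± 3.69 CPM in FL1 estrus, 17.3 ± 5.13 in ctrl estrus, 14.6 ± 2.30 in ctrl diestrus and 13.1 ± 4.92 in FL1 diestrus (SD, n = 5). The upper step of 9.23 CPM exceeded both SDs, and the other neighbours did not differ beyond their spread. FL1 in estrus had 2.02 times its diestrus level (log2FC 1.01, SE 0.20, adjusted p = 0.00267). In estrus FL1 stood at a log2FC of 0.61 against ctrl (SE 0.20, adjusted p = 0.148), which passed only without ctrl estrus replicate 5 (log2FC 0.77, adjusted p = 0.0384).

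Nr1d1, REV-ERB alpha, is on chromosome 11 (ENSMUSG00000020889, chr11:98767932-98775333, − strand). Its level was 57.5, 29.8, 54.9, 26.4 and 27.9 CPM in ctrl estrus and 22.5, 22.0, 40.9, 21.2 and 34.2 CPM in FL1 estrus. It was 21.2, 25.4, 39.1, 28.1 and 59.1 CPM in ctrl diestrus and 56.9, 36.6, 44.8, 41.0 and 41.8 CPM in FL1 diestrus. In ctrl estrus, replicates 1 and 3 stood apart from the other 3 libraries, and in ctrl diestrus replicate 5 was the highest library of all 20. Means were 44.2 ± 7.68 CPM in FL1 diestrus, 39.3 ± 15.5 in ctrl estrus, 34.6 ± 15.2 in ctrl diestrus and 28.1 ± 8.91 in FL1 estrus (SD, n = 5), and no neighbours differed beyond both SDs. In FL1 the estrus level was 0.642 times the diestrus level, with overlapping libraries (log2FC -0.64, SE 0.18, adjusted p = 0.0225). The call was lost without FL1 estrus replicate 1, 2 or 4 or FL1 diestrus replicate 1 (adjusted p up to 0.0648). Nr1d1 shares exon bases at its 3′ end with Thra, the thyroid hormone receptor alpha gene on the opposite strand, which had 1041 to 2040 counts per library.

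Nr1d2, REV-ERB beta, is on chromosome 14 (ENSMUSG00000021775, chr14:18204054-18239127, − strand) and overlaps no other gene. Its level was 110.5, 68.7, 113, 103 and 80.8 CPM in ctrl estrus and 51.0, 68.2, 90.0, 62.8 and 82.0 CPM in FL1 estrus. In diestrus it had 69.7, 110.1, 79.4, 97.7 and 147 CPM in ctrl and 105, 96.8, 93.1, 94.8 and 112 CPM in FL1. The FL1 diestrus libraries lay close together, with a coefficient of variation of 7.82%, against 29.9% in ctrl diestrus. Means were 101 ± 30.1 CPM in ctrl diestrus, 100.3 ± 7.84 in FL1 diestrus, 95.2 ± 19.5 in ctrl estrus and 70.8 ± 15.5 in FL1 estrus (SD, n = 5). The first 3 did not differ beyond their spread, and the step of 24.4 CPM to FL1 estrus exceeded both SDs with overlapping libraries. In FL1 the estrus level was 0.709 times the diestrus level, and those libraries did not overlap (log2FC -0.50, SE 0.13, adjusted p = 0.0125). Between the lines in estrus the log2FC was -0.43 (SE 0.17, adjusted p = 0.214).

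Bhlhe40 and Bhlhe41, the DEC repressors, both lie on chromosome 6 (ENSMUSG00000030103, chr6:108660629-108666925, + strand, and ENSMUSG00000030256, chr6:145858243-145865558, − strand). Bhlhe40 had 56.3, 67.5, 46.6, 42.5 and 75.957 CPM in ctrl estrus and 36.028, 33.9, 69.5, 37.9 and 62.7 CPM in FL1 estrus. It had 51.2, 101, 62.4, 155 and 126 CPM in ctrl diestrus and 67.0, 105, 85.4, 83.9 and 78.7 CPM in FL1 diestrus. Both diestrus groups had the higher means, 99.2 ± 43.3 CPM in ctrl and 84.0 ± 13.8 in FL1, against 57.8 ± 14.0 in ctrl estrus and 48.0 ± 16.7 in FL1 estrus (SD, n = 5). The middle step of 26.2 CPM exceeded both SDs, and the others did not. The estrus level was 0.575 times the diestrus level in FL1 (log2FC -0.80, SE 0.18, adjusted p = 0.00738). In ctrl it was 0.583 times (log2FC -0.78, SE 0.28, edgeR unadjusted p = 0.0139, adjusted p = 0.166), which did not pass.

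Bhlhe41 had 23.6, 9.93, 15.0, 6.79 and 6.54 CPM in ctrl estrus and 4.56, 7.32, 13.7, 11.5 and 7.71 CPM in FL1 estrus. In diestrus it had 12.0, 9.99, 21.7, 13.7 and 34.1 CPM in ctrl and 31.0, 24.2, 24.9, 24.0 and 22.9 CPM in FL1. Every FL1 diestrus library lay above every FL1 estrus library, with a gap from 13.7 to 22.9 CPM. Means were 25.4 ± 3.20 CPM in FL1 diestrus, 18.3 ± 9.89 in ctrl diestrus, 12.4 ± 7.14 in ctrl estrus and 8.98 ± 3.64 in FL1 estrus (SD, n = 5), each step smaller than the larger SD beside it. In FL1 the estrus level was 0.356 times the diestrus level, the largest change of the 9 genes in either direction (log2FC -1.49, SE 0.22, adjusted p = 0.000256). Between the lines in diestrus the log2FC was 0.47 (SE 0.27, adjusted p = 0.392), and it passed only without ctrl diestrus replicate 5 (log2FC 0.82, adjusted p = 0.0376). Gm43909, an entry of the annotation without a known function, covers 1280 of its exon bases on the opposite strand and had 0 to 7 counts.

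Ciart, the CHRONO repressor (chromosome 3, ENSMUSG00000038550, chr3:95878503-95882251, − strand), was counted with few reads. Its level was 2.82, 1.16, 0.392, 1.98 and 0.517 CPM in ctrl estrus and 3.38, 2.84, 1.89, 1.18 and 0.75 CPM in FL1 estrus. In diestrus it was 2.08, 2.05, 0.899, 1.63 and 4.3 CPM in ctrl and 2.88, 3.27, 5.52, 2.41 and 3.35 CPM in FL1. The groups overlapped in every comparison. Means ran from 3.48 ± 1.19 CPM in FL1 diestrus through 2.19 ± 1.27 in ctrl diestrus and 2.01 ± 1.10 in FL1 estrus to 1.37 ± 1.02 in ctrl estrus (SD, n = 5), so Ciart alone of the 9 had its lowest mean in ctrl estrus. The upper step of 1.29 CPM exceeded both SDs with overlapping libraries, and the other neighbours did not differ beyond their spread. In FL1 the log2FC of estrus against diestrus was -0.80 (SE 0.41, adjusted p = 0.197), with a 95% interval from -1.67 to 0.06. That interval holds the estimates of Hlf (-0.79) and Bhlhe40 (-0.80). Beside its low counts, Ciart also varied more between animals than counting error gives, with a biological coefficient of variation in edgeR of 0.468 against 0.267 for Hlf and 0.282 for Bhlhe40.

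**Figure D2:**
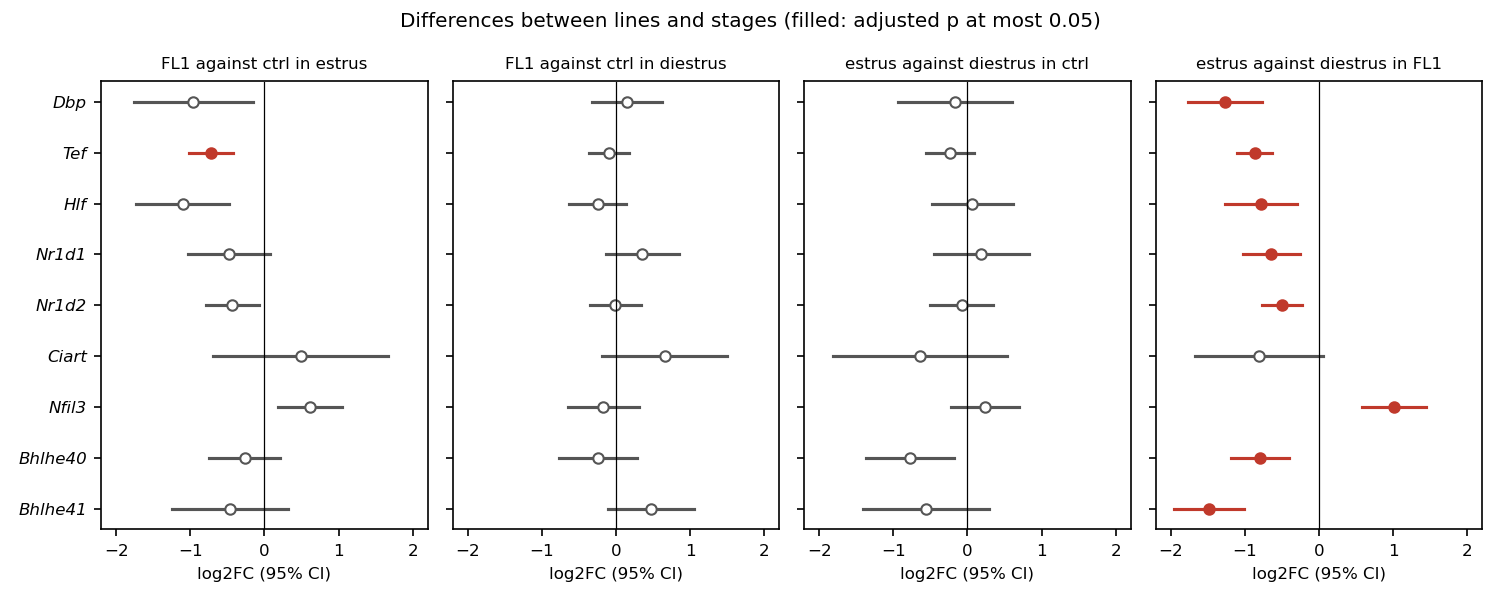
log2FC of the 9 genes with 95% confidence intervals in the 4 comparisons. Filled red points have an adjusted p of at most 0.05. One gene, Tef, is filled for FL1 against ctrl in estrus, none in diestrus, none for estrus against diestrus in ctrl, and 8 in FL1.

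The question of which genes set the fertile line apart was asked within each stage. In estrus 1 of the 9 genes, Tef, was called, against 2.33% of all 13374 tested genes (1.26% weaker in FL1). Its libraries did not overlap, as in 4.85% of all genes (2.31% lower in FL1). Of the 9 estimates 7 were negative and 2, Ciart and Nfil3, positive, with a median log2FC of -0.47 against -0.01 over all tested genes. Before adjustment 5 of the 9 had a p under 0.05 (Dbp, Tef, Hlf, Nr1d2 and Nfil3), against 15.9% of all genes. In diestrus 0 of the 9 were called by edgeR, DESeq2 or limma-voom, against 4.11% of all 13259 genes in edgeR, and 0 had an unadjusted p under 0.05, against 17.7% of all genes. The widest interval of a log2FC in diestrus was that of Ciart, from -0.19 to 1.499, and the narrowest that of Tef, from -0.36 to 0.18. The line comparisons of the 2 stages share no libraries, and the estimates for Tef were -0.72 in estrus and -0.09 in diestrus.

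The stages were then compared within each line. In FL1 8 of the 9 genes were called between estrus and diestrus, 7 weaker and 1 stronger in estrus, against 15.9% of all 13350 genes, 8.49% weaker and 7.42% stronger. The median log2FC of the 9 was -0.80, against 0.01 over all tested genes. The libraries did not overlap for 5 of the 9 (Dbp, Tef, Nr1d2 and Bhlhe41 lower, Nfil3 higher in estrus), as for 12.1% of all genes (6.53% lower and 5.58% higher in estrus). Leaving out 1 library in turn left 6 to 8 of the 9 called. With 1 fit of all 20 libraries 5 remained called, and Hlf (adjusted p = 0.0527), Nr1d1 (0.132) and Nr1d2 (0.0750) did not pass. In ctrl 0 of the 9 were called by edgeR, DESeq2 or limma-voom, against 2.85% of all 13334 genes in edgeR, and 1, Bhlhe40, had an unadjusted p under 0.05, against 15.4% of all genes. The median log2FC of the 9 in ctrl was -0.17, against -0.01 over all genes.

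**Figure D3:**
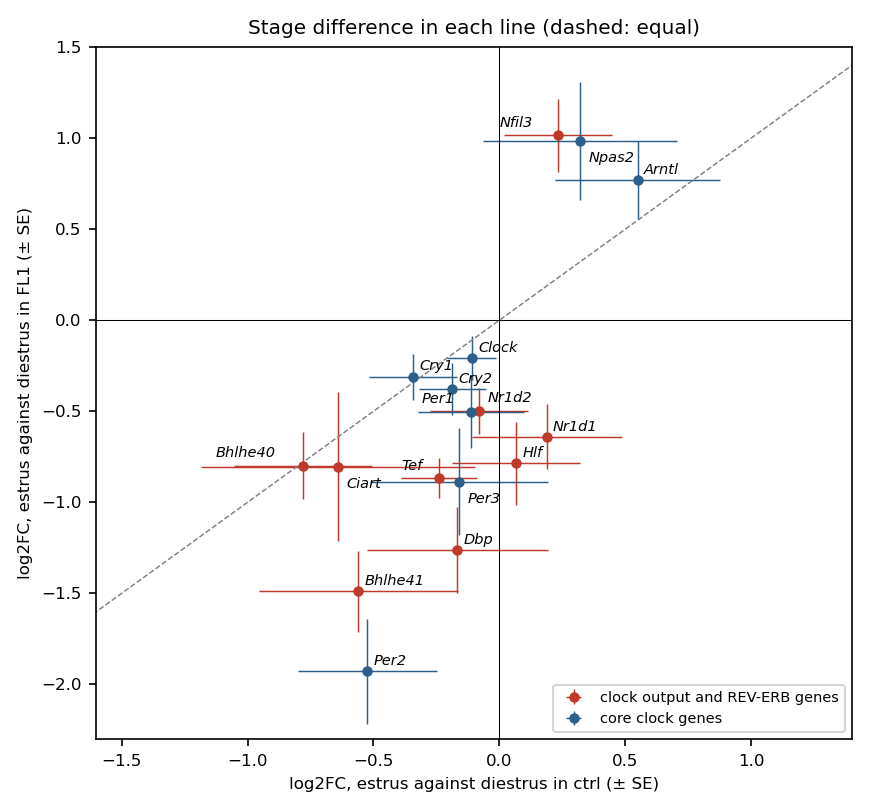
log2FC of estrus against diestrus in ctrl (x axis) and in FL1 (y axis), each ± SE, for the 9 genes in red and 8 core clock genes in blue. The dashed line marks equal differences, and the lines share no libraries. Bhlhe40 lies on the dashed line (-0.78 and -0.80), while Dbp (-0.17 and -1.26), Hlf (0.07 and -0.79) and Nr1d1 (0.19 and -0.64) lie below it.

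The stage differences of the 2 lines were not shown to differ. In the interaction test over all 20 libraries 0 of the 9 genes were called by edgeR, DESeq2 or limma-voom, against 0.0565% of all 14154 genes in edgeR. An unadjusted p under 0.05 was found for 5 of the 9 (Dbp, Tef, Hlf, Nr1d1 and Nfil3), against 11.7% of all genes. Tef had the smallest p, and its stage log2FC was lower by 0.63 in FL1 (interaction -0.63, SE 0.19, edgeR adjusted p = 0.193). For Nfil3 the interaction was 0.78 (SE 0.31, edgeR adjusted p = 0.310), and for Bhlhe40 it was -0.02 with a 95% interval from -0.77 to 0.73.

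The genes of the core loop were measured beside the output genes, 8 of 9 of them tested, with Arntl2 too low. Per2, which represses BMAL1 and CLOCK, had 10.996, 11.6, 7.58, 8.58 and 11.2 CPM in ctrl estrus and 1.91, 2.09, 6.4, 2.81 and 4.39 CPM in FL1 estrus. It had 11.5, 13.3, 6.75, 20.6 and 19.7 CPM in ctrl diestrus and 11.8, 15.7, 15.8, 14.9 and 10.9 CPM in FL1 diestrus. Like Tef, Per2 was lower in FL1 estrus than in either of the groups it was tested against, without overlap of libraries. In estrus its log2FC of FL1 against ctrl was -1.48 (SE 0.32, adjusted p = 0.0263), and in FL1 that of estrus against diestrus was -1.93 (SE 0.29, adjusted p = 0.000237). Its interaction of -1.41 did not pass (SE 0.42, edgeR adjusted p = 0.180).

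Arntl and Npas2, which REV-ERB represses, were stronger expressed in estrus than in diestrus in FL1. Arntl had a log2FC of 0.77 there (SE 0.21, adjusted p = 0.0217) and 0.55 in ctrl (SE 0.33, adjusted p = 0.478). Npas2 had 0.98 in FL1 (SE 0.32, adjusted p = 0.0479) and 0.32 in ctrl (SE 0.38, adjusted p = 0.772). The FL1 estrus and diestrus libraries overlapped for both genes. Npas2 had 25 to 52 counts per library in FL1 estrus and 12 to 18 in FL1 diestrus. Per1 (-0.50, adjusted p = 0.101), Per3 (-0.89, adjusted p = 0.0508), Cry1 (-0.31, adjusted p = 0.106), Cry2 (-0.38, adjusted p = 0.0801) and Clock (-0.21, adjusted p = 0.263) did not pass in FL1. The count for the loop was thus 3 of 8 called in FL1, 2 stronger and 1 weaker in estrus (15.9%, 7.42% and 8.49% of all genes). It was 1 of 8 between the lines in estrus (2.33% of all genes). In that comparison 5 of 8 had an unadjusted p under 0.05 in edgeR, against 15.9% of all genes. These were Arntl and Npas2, stronger in FL1, and Per1, Per2 and Per3, weaker. Between the lines in diestrus and between the stages in ctrl the count was 0 of 8 by edgeR, DESeq2 or limma-voom, and 0 had an unadjusted p under 0.05.

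Genes that act with or under the 9 were counted by list. Of all genes edgeR called 2.33% between the lines in estrus and 4.11% in diestrus. Between the stages it called 2.85% in ctrl and 15.9% in FL1. Rora, the ROR activator at REV-ERB sites, was the 1 called of 2 tested ROR genes, stronger in FL1 in diestrus (log2FC 0.67, SE 0.14, adjusted p = 0.0119). Csnk1e, a kinase of the PER proteins, was the 1 called of 4 clock kinase and ligase genes, weaker in estrus in FL1 (-0.37, adjusted p = 0.0104). Of the corepressor genes Ncor1 and Hdac3, 0 of 2 were called in any comparison by edgeR, and 1 had an unadjusted p under 0.05 and was called by DESeq2 and limma-voom in the FL1 stage comparison. Among 4 tested genes given elsewhere as PAR bZIP targets, Por, the P450 reductase, was weaker in FL1 in estrus (-0.70, adjusted p = 0.0228). In diestrus Por was not called between the lines, with means of 145 CPM in ctrl and 114 CPM in FL1. Its mean in FL1 estrus was 114 CPM too. Abcb1a, a drug efflux pump, was stronger in FL1 in diestrus (0.58, adjusted p = 0.0147) and stronger in estrus in ctrl (0.68, adjusted p = 0.0424). In the FL1 stage comparison 0 of these 4 were called by edgeR, DESeq2 or limma-voom, against 15.9% of all genes in edgeR. There 0 had an unadjusted p under 0.05, and their median log2FC was -0.19. Of the 7 genes on this list, 3 (Nr1i3, Cyp2a4 and Cyp2a5) had 0 counts in every group. Whether these targets follow Dbp, Tef and Hlf was not tested.

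Of 5 tested genes given as REV-ERB targets, 2 were called in the FL1 stage comparison, both stronger in estrus, against 15.9% of all genes. The chemokine gene Ccl2 was 1 of them (log2FC 2.23, adjusted p = 0.00676), with 1 to 13 counts per library in FL1 diestrus and 11 to 68 in FL1 estrus. The fractalkine receptor gene Cx3cr1 was the 1 called of 5 between the lines in estrus, weaker in FL1 (-0.85, adjusted p = 0.0386), against 2.33% of all genes. Of 5 other genes with a daily rhythm, Klf9, a zinc finger factor also induced by glucocorticoids, was weaker in FL1 in estrus (-0.48, adjusted p = 0.0339) and stronger in estrus in ctrl (0.43, adjusted p = 0.0408).

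Glucocorticoid and stress signals also reach clock genes, so genes that respond to them were counted. In FL1 3 of 4 glucocorticoid response genes fell in estrus, Fkbp5 (log2FC -0.66, adjusted p = 0.000236), Tsc22d3 (-0.75, adjusted p = 0.000386) and Sgk1 (-0.63, adjusted p = 0.0248). Of all genes 15.9% were called in that comparison, and 8.49% were weaker in estrus. Zbtb16 was not called and had means of 2.71 CPM in FL1 estrus and 2.15 CPM in FL1 diestrus. Tsc22d3 also fell in ctrl (-0.46, adjusted p = 0.0187), and Fkbp5 was stronger in FL1 in diestrus (0.45, adjusted p = 0.0309). Of 7 tested acute response genes 3 fell in estrus in FL1 (8.49% of all genes), Junb (-0.71, adjusted p = 0.0123), Egr1 (-0.74, adjusted p = 0.00945) and Dusp1 (-0.96, adjusted p = 0.0249). In the other comparisons edgeR called 0 of them, with 1 unadjusted p under 0.05 between the lines in estrus, 3 between the lines in diestrus, 2 between the stages in ctrl and 0 for the interaction, and DESeq2 and limma-voom each called 1 between the stages in ctrl. The summed level of the 4 glucocorticoid response genes ran from 689 to 1039 CPM in FL1 estrus and from 1104 to 1383 CPM in FL1 diestrus.

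Cell type markers moved between the stages of FL1 as well, where 8.49% of all genes were called weaker and 7.42% stronger in estrus. Of the luteal markers 5 of 6 tested fell in estrus (Lhcgr, Star, Ptgfr, Prlr and Cyp11a1), with a summed level of 13959 to 30319 CPM in estrus and 28512 to 37746 CPM in diestrus. Akr1c18, also part of this sum, was not called and had the higher mean in estrus, 11521 against 10109 CPM in diestrus. Granulosa markers fell in 3 of 5 (Foxl2, Cyp19a1 and Inhba), with sums of 1842 to 2832 CPM and 2046 to 3300.5 CPM. Inha and Fshr were not called, and Inha, the largest part of these sums, had means of 1586 CPM in estrus and 1573 CPM in diestrus. Amh was too low to be tested, with at most 3 counts in an FL1 library. Theca markers fell in 2 of 2 (Cyp17a1 and Aldh1a1), with sums of 622 to 872 CPM and 1179.7 to 1422 CPM. Endothelial markers fell in 3 of 3 (Pecam1, Cdh5 and Kdr), from 263.3 to 351 CPM in diestrus to 169.99 to 221 CPM in estrus. Blood markers fell in 4 of 4 (the globin genes Hbb-bs, Hbb-bt and Hba-a1, and Alas2), with sums of 870.1 to 1668 CPM and 1213 to 3298 CPM. Insl3, the third theca marker, had 0 counts in all FL1 libraries. The oocyte marker Bmp15 (1 of 5, sums of 139.6 to 348 CPM and 118 to 187 CPM) and the fat cell marker Fabp4 (1 of 4, sums of 45.6 to 92.8 CPM and 24.0 to 39.2 CPM) rose in estrus. Of the immune markers 0 of 4 were called by edgeR, DESeq2 or limma-voom, and 0 had an unadjusted p under 0.05. In ctrl, 1 marker each of the granulosa (Inhba), luteal (Lhcgr) and theca (Cyp17a1) lists fell in estrus and 1 immune marker (Cd68) rose by edgeR. DESeq2 called 2 granulosa and 2 luteal markers there and limma-voom 4 luteal markers. An unadjusted p under 0.05 was found for 3 of 5 granulosa, 4 of 6 luteal and 4 of 4 blood markers in ctrl, and the 6 luteal and 4 blood estimates were all negative. The luteal sum in ctrl was 10267 to 33427 CPM in estrus and 24083 to 42075 CPM in diestrus, and the blood sum was 767 to 1557 CPM and 432 to 2791.5 CPM. The part of cell makeup in the stage differences of the 9 genes was not tested. Between the lines in estrus, where Tef was called, 0 markers of these lists were called by edgeR, 8 had an unadjusted p under 0.05, DESeq2 called 4 and limma-voom 3. FL1 and ctrl libraries were fully apart there for Inhba (log2FC 1.20 in FL1, adjusted p = 0.0627), Cdh5 (-0.41, adjusted p = 0.0729) and the oviduct marker Pax8 (higher in FL1, too low to be tested). The sum of the 4 oviduct markers in estrus was 1.92 to 4.63 CPM in FL1 and 0 to 1.82 CPM in ctrl. The part of these markers in the difference of Tef was not tested.

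**Figure D4:**
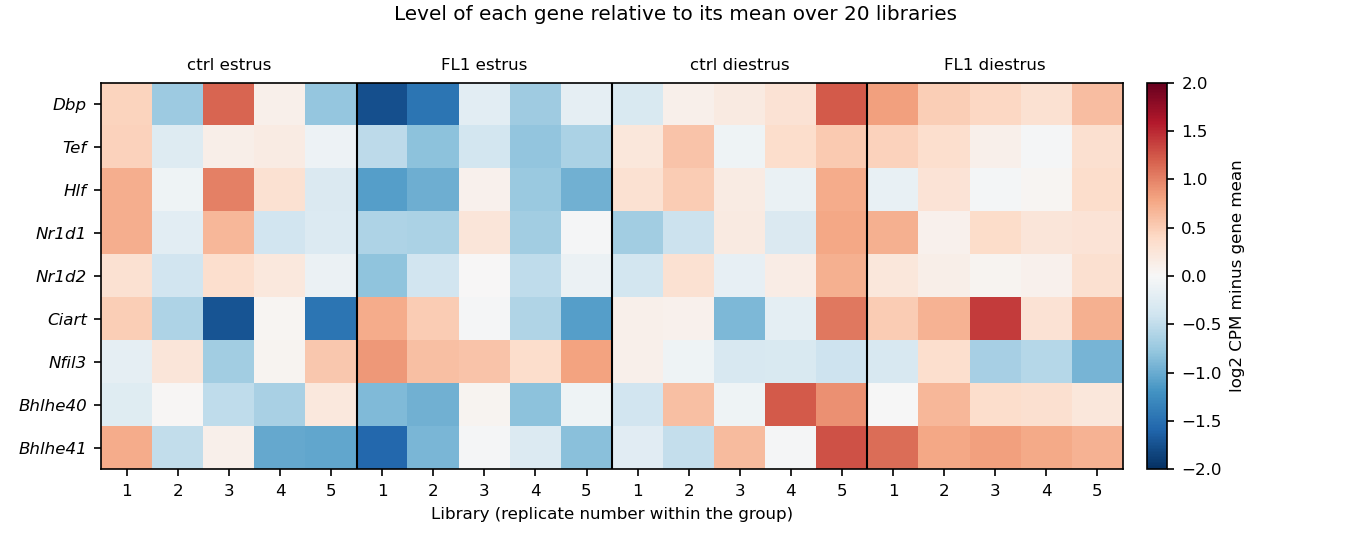
log2 CPM of the 9 genes in each of the 20 libraries, minus the mean of the gene over all libraries (red above, blue below). Columns are libraries by group and replicate number, which has no order. FL1 estrus is blue in most rows and red for Nfil3, FL1 diestrus is red in most rows, and ctrl diestrus replicate 5 is red in 8 rows and blue for Nfil3.

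Within groups the 9 genes differed in how far animals spread. On the log2 CPM scale, with a prior count of 2, the SD within groups was 0.73 for Ciart, 0.62 for Dbp, 0.61 for Bhlhe41, 0.47 for Nr1d1 and Bhlhe40, 0.41 for Hlf, 0.36 for Nfil3, 0.31 for Nr1d2 and 0.23 for Tef. Dbp, at percentile 84.1 of this SD among 14154 genes, spread more between animals of a group than most genes, and Tef was at percentile 35.8. Of the ctrl diestrus animals, replicate 5 had the highest level of 6 of the 9 genes (Dbp, Hlf, Nr1d1, Nr1d2, Ciart and Bhlhe41) and the lowest of Nfil3.

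Some of the genes varied together between animals of a group. Deviations of log2 CPM from the group means were correlated over the 20 libraries for the 36 pairs of genes and for each gene with Arntl, 45 relations in all, with p from 100000 permutations within groups. In 9 of the 36 pairs the adjusted permutation p was at most 0.05, 8 with a positive and 1 with a negative r, while by rho 1 pair, Dbp and Nr1d2, passed. The median r of the 36 pairs was 0.25, against -0.0008 over all 100146628 pairs of tested genes. An r as large in size as that of the weakest called pair, 0.545, was found in 12 of the 36 pairs and in 4.86% of all pairs, and one at least as high as the weakest called positive r, 0.652, in 8 of the 36 and in 0.763% of all pairs. The closest pair was Dbp and Nr1d2 (r = 0.84, rho = 0.83, adjusted permutation p = 0.0045 for r and 0.0126 for rho), with deviations of the same sign in 17 of 20 libraries and r = 0.81 without the 2 libraries farthest from the median of Dbp. Nr1d1 and Bhlhe41 had r = 0.83 (rho = 0.76, adjusted permutation p = 0.013 and 0.0506). Dbp and Nr1d1 had r = 0.80 (rho = 0.71, adjusted permutation p = 0.013 and 0.0506). Dbp with Hlf (0.72) and with Bhlhe41 (0.71), Nr1d1 with Nr1d2 (0.69), Hlf with Nr1d2 (0.66) and Tef with Nr1d2 (0.65) each had an adjusted permutation p of 0.0432 for r, and for rho these 5 had 0.093, 0.0506, 0.0777, 0.0871 and 0.0642 in the same order. Dbp and Nfil3, the activator and the repressor at D-boxes, had r = -0.55 (rho = -0.55, adjusted permutation p = 0.0495 and 0.0965), and r = -0.38 without the 2 farthest libraries.

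These relations rest on few animals. Without ctrl diestrus replicate 5 only 1 pair had an adjusted permutation p of at most 0.05, and without any other single library 3 to 10 pairs did. Within ctrl alone 3 were called (Dbp with Nr1d2, r = 0.84, Dbp with Nfil3, r = -0.91, and Nr1d1 with Bhlhe41, r = 0.95). Within FL1 alone, within estrus alone and within diestrus alone 0 were called, over 10 libraries each. For Dbp and Nr1d2 the r was 0.84 in FL1, 0.87 in estrus and 0.87 in diestrus. Dbp and Nfil3 had r = -0.09 in FL1. None of the 9 genes was called with Arntl, the nearest being Tef (r = -0.57, rho = -0.47, adjusted permutation p = 0.086 and 0.164), and r was -0.26 without the 2 farthest libraries. Without ctrl estrus replicate 5, the library farthest from its own group, Tef and Arntl had r = -0.73 (adjusted permutation p = 0.0352).

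**Figure D5:**
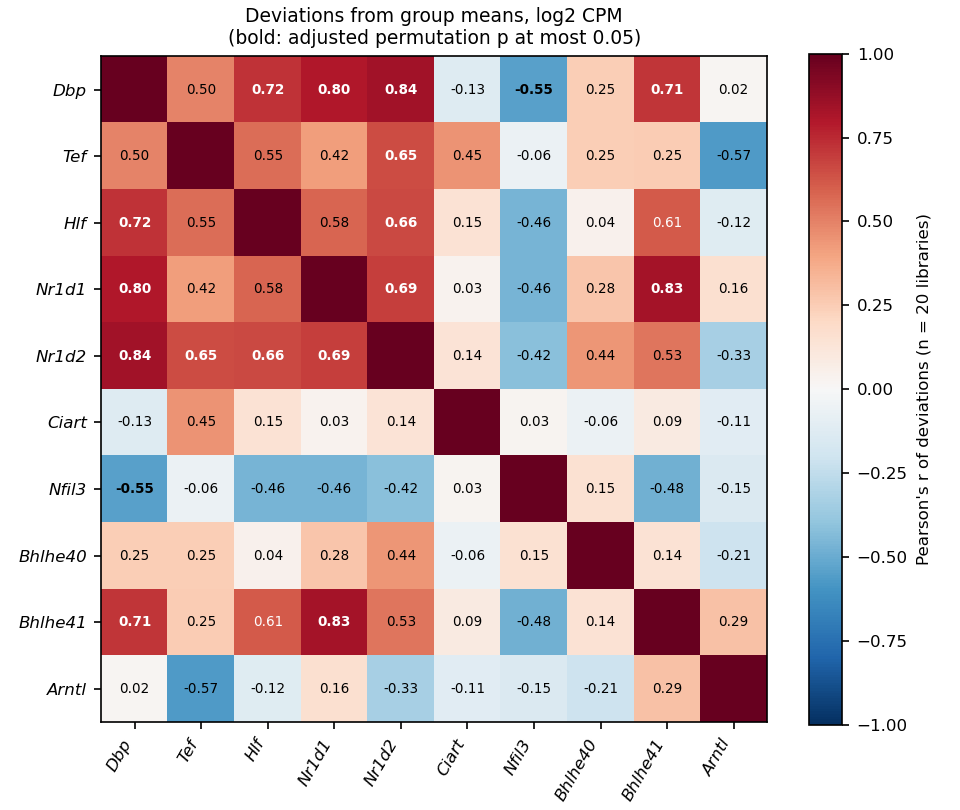
Pearson's r between the deviations of log2 CPM from the group means over 20 libraries, for the 9 genes and Arntl. Bold values have an adjusted permutation p of at most 0.05. Dbp, Hlf, Nr1d1, Nr1d2 and Bhlhe41 form the red block with r from 0.53 to 0.84, while Ciart and Bhlhe40 hold no bold value.

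Among 14153 other genes, those whose deviations from the group means were most like those of each gene over the 20 libraries are given here by r alone, as a description. For Dbp they were Zcchc14 (0.84), Nr1d2 (0.84) and Nedd4 (0.83), and for Nr1d2 they were Dbp (0.84), Gm19196 (0.80) and Magi2 (0.79). AU020206 (0.88) and Klhl24 (0.84) were among those nearest to Nr1d1, and for Bhlhe41 they were Nr1d1 (0.83), Sbf2 (0.82) and Mnat1 (0.80). For Bhlhe40 they were S100a4 (0.87), the clock gene Per2 (0.85) and Bag4 (0.83). The genes nearest to Tef were Ecm2 (0.84), Srpk2 (0.81) and Scg5 (0.79), and to Hlf Adgrl1 (0.87), Cul4b (0.86) and Usp7 (0.81). Nfil3 was nearest to Drg1 (0.83), Tpm3 (0.82) and Fkbp1a (0.80), and Ciart to Pfas (0.82), Zfp292 (0.81) and Pabpc1l (0.80). Another of the 9 genes was thus among the 3 nearest for Dbp, Nr1d2 and Bhlhe41, and a core clock gene for Bhlhe40.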

How the data were processed

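Ovaries of 20 mice were measured, 5 separate animals per line and stage, grouped by their titles and characteristics in the labels. After trimming, the authors aligned the reads to GRCm38 with STAR and deposited raw counts of uniquely assigned reads per Ensembl gene. Cuffdiff is listed in the labels without a role. The counting tool and its strand setting are not given in the sources used here, so reads of genes that overlap on opposite strands cannot be told apart. No molecular identifiers are named. The tests draw on the spread between the animals of a group as well as on counting error.

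GENCODE M21 (GRCm38) gave symbols and positions for 54809 of the 54838 genes. Differences were tested with the quasi-likelihood test of edgeR 4.0.16 (R 4.3.3), after TMM normalization and filterByExpr with a minimum count of 10, with Benjamini-Hochberg adjustment over all tested genes. Each comparison was fitted on its 10 libraries and the interaction on all 20. The SE is the size of the log2FC over the square root of F. Scripts were tested on simulated counts. Alternatives were RLE size factors, DESeq2 1.42.0, limma-voom (limma 3.58.1) with sample weights, keeping genes with at least 1 count in total or with 10 counts in every library, a single fit over all libraries, replicate numbers as a block, and omission of each library. Deviations were correlated with a prior count of 2 (also 0.5) in Python 3.11.15 with scipy 1.17.1.

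The 9 genes and all lists were chosen with earlier results of these data known. Genes named are the 9, the core clock genes, other listed genes called in any of the 5 tests, markers called, and the 3 nearest by r, except that some results are not reported here.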

Additional observations from a re-analysis of the deposited data

Results flagged for a closer look

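Each of the 9 genes was examined for a library apart from the others in each of the 4 groups, 36 groups of 5 libraries in all, by the gap of the highest or lowest library to its neighbour relative to the range, on the log2 CPM and on the CPM scale. On the log2 scale 1 group stood out, Bhlhe41 in FL1 diestrus, where replicate 1 had 31.0 CPM and the other 4 libraries lay between 22.9 and 24.9 CPM, a gap of 0.712 of the range on the log2 scale and 0.755 on the CPM scale. On the CPM scale 3 groups did, the others being Hlf in FL1 estrus, where replicate 3 had 13.1 CPM (gap 0.779 of the range), and Dbp in ctrl diestrus, where replicate 5 had 185 CPM (gap 0.738). This test flags about 1 group in 20 by chance. Between the stages in FL1, Bhlhe41 without the first of these libraries and Hlf without the second kept their direction and their call. Between the stages in ctrl, Dbp was not called with or without the third, and its estimate turned from -0.17 to 0.15 without it.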

How the results depend on the processing

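The direction of Tef between the lines in estrus, and of the 8 genes called between the stages in FL1, was the same in every setting tried. Tef was called in all of them, as were Dbp, Tef, Nfil3, Bhlhe40 and Bhlhe41 between the stages in FL1, where the fit of all libraries left 5 of the 9 genes called. Between the lines in estrus 2 of the 9 were called with DESeq2, limma-voom, at least 1 count in total, 1 fit of all libraries and the replicate block, Hlf being the one added (adjusted p from 0.011 to 0.0343). Leaving out 1 library gave 1 to 3 genes between the lines in estrus, 0 to 1 in diestrus and 6 to 8 between the stages in FL1. With at least 10 counts in every library Ciart was not tested.

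Same-numbered libraries are different animals, and their deviations from the group means had r from -0.10 to 0.13 over 20 pairs, 1 of them over 0.1, with 5 libraries nearest to their own number. The replicate block gave 2 of the 9 genes between the lines in estrus, 8 between the stages in FL1 and 0 in the other tests, and 230, 498, 259, 2020 and 12 genes of the whole table in the order line in estrus, line in diestrus, stage in ctrl, stage in FL1 and interaction.

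Over the whole table, the 311 genes between the lines in estrus became 671 with DESeq2, 477 with at least 1 count in total and 531 with 1 fit of all libraries (175 to 418 with 1 library left out). The 545 in diestrus became 894 with DESeq2 and 846 with at least 1 count (349 to 594). The 380 between the stages in ctrl became 768 with DESeq2, 655 with limma-voom and 909 with 1 fit of all libraries (176 to 516). The 8 of the interaction became 152 with DESeq2, 31 with limma-voom and 17 with at least 1 count (0 to 15). The cause of these differences was not tested. The 9 pairs with shared deviations became 3 within ctrl and 0 within FL1, estrus or diestrus (1 to 10 with 1 library left out).

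Estimates near 0 changed sign. Nr1d2 between the lines in diestrus, -0.01, became 0.0171 with limma-voom and 0.0305 with the replicate block, and ran from -0.12 to 0.16 with 1 library left out. With 1 library left out the stage log2FC in ctrl ran from -0.54 to 0.15 for Dbp, -0.13 to 0.20 for Hlf and -0.19 to 0.0909 for Nr1d2, and the interaction from -0.54 to 0.24 for Ciart and -0.24 to 0.15 for Bhlhe40. Depth limits Ciart most, with as few as 3 counts in a library.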
